A study of Mus musculus with 12 samples.

Results

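The genes of thyroid hormone and retinoic acid signaling examined here were the receptors of thyroid hormone (Thra and Thrb), of retinoic acid (Rara, Rarb and Rarg) and the retinoid X receptors (Rxra, Rxrb and Rxrg), together with Dio2, the deiodinase that makes active thyroid hormone in the brain. They were chosen by name, with earlier results of these data known, and every probe set annotated to 1 of them alone was taken. This gave 9 genes of 18193 on the array and 16 probe sets of 34945 with a single gene symbol, and 0 probe sets were shared with another gene. RNA came from the prefrontal cortex (the anterior cortex) of C57BL/6J mice, a common inbred strain with no allele or drug added, which were obtained as young adults at 10 weeks of age, then acclimatised and entrained to equal periods of light and dark for a week each. The 4 groups were 3 mice at ZT3 and 3 at ZT9, in the light, and 3 at ZT15 and 3 at ZT21, in the dark, where zeitgeber time (ZT) counts hours from lights on. Each Affymetrix Mouse430_v2 array held the RNA of 1 mouse. The tissue is a block of cortex with all its cell types, so that fewer cells of a type and less RNA per cell cannot be told apart. With 1 light and dark cycle and no constant darkness, an effect of the light schedule and one of the internal clock cannot be told apart either.

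Both receptor families sit on DNA in the nucleus with or without their ligand. Thyroid hormone receptors and retinoic acid receptors bind mostly as heterodimers with a retinoid X receptor, recruit corepressors when no ligand is bound, and exchange them for coactivators when it is. In brain much of the active hormone triiodothyronine is made locally from thyroxine by Dio2, which is known from astrocytes. Thra is the more widely expressed of the thyroid hormone receptor genes in brain, and by splicing it also gives a form that does not bind the hormone. Rarb and Rxrg are known for their expression in the striatum, and Rxrb is expressed widely.

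Transcripts of 3 of these genes were called as changing over the day, each by 1 probe set, and the calls depended on the settings. Thra was lowest at ZT3, Thrb was lowest at ZT21, and Dio2 was highest at ZT15. The other probe sets of Thra and Dio2 were not called. The calls of Thrb and Dio2 were each lost in 8 of the 12 fits with an array left out. With the replicate number as a block, 0 members were called. Of the 16 probe sets, 11 were bright enough to be tested, with a mean log2 intensity of at least 4.87 over the 12 arrays. Of these 11, 3 passed limma's moderated F-test for any change over the 4 time points, with adjusted p-values under 0.20 (the false discovery rate used in the study), against 1.93% of all tested probe sets. At an unadjusted p under 0.05 there were the same 3 of 11, against a background of 15.5%. The range, which is the highest of the 4 means minus the lowest on the log2 scale, had a median of 0.44 over the 11 and of 0.27 over all tested probe sets. The genes were chosen with earlier results of these data known, so these shares and medians are descriptions only. All levels below are log2 intensities. A probe set has its own brightness, so levels are compared between times and not between probe sets.

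**Figure D1:**
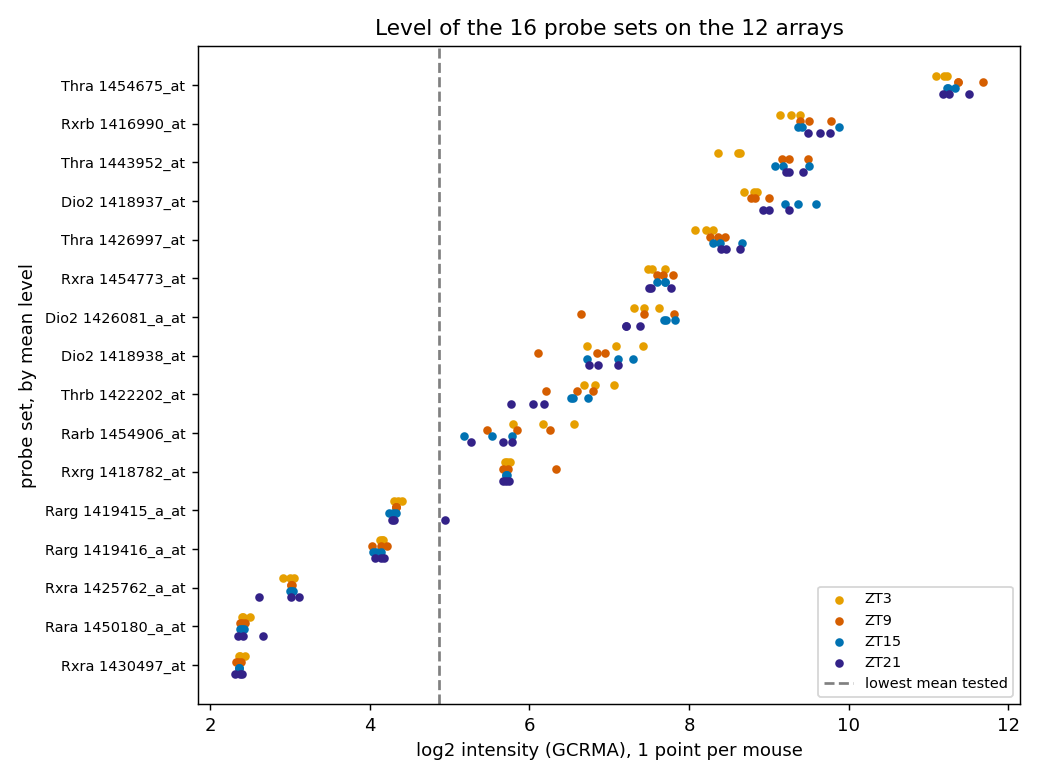
Log2 intensity of the 16 probe sets (rows, ordered by mean level) on the 12 arrays, 1 point per mouse coloured by time point, with a dashed line at the lowest mean that was tested. The 5 probe sets left of the line, of Rara, Rarg and Rxra, had no tested level, and positions of different probe sets reflect their probes as well as the amount of RNA.

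The promoters of Dio2, Rarb and Thrb are given, as the 250 bases before a transcription start in RefSeq on GRCm38.p6. They are examples, and windows of other members, such as Rara and Rxra, also held motifs. Windows were given for 8 of the 9 genes, 16 in all, and Thra had no entry. Six-letter and longer motifs were sought on both strands, and the share of all 32851 promoter windows of this length that hold each is given as a background. Motifs can overlap, and a match is a description of letters, not of a binding site. The Dio2 window, on the minus strand of chromosome 12 at chr12:90739039-90739288, held the cAMP response element TGACGTCA, which 1.546% of all windows hold, at -95 to -88 from the start. The capitals mark it.

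Dio2: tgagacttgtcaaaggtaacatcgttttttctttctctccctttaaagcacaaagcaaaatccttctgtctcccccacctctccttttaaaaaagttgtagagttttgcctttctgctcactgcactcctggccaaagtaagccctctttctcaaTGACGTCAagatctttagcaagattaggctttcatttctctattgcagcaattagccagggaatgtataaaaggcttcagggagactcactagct

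The Rarb window, on the minus strand at chr14:16575477-16575726, held the receptor motif GGTTCA, followed by its variant AGTTCA, as a direct repeat with 5 bases between them, at -53 to -37. Repeats of these motifs or of AGGTCA at such a spacing occur in 0.055% of windows and are the form known as a retinoic acid response element. The capitals mark the repeat.

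Rarb: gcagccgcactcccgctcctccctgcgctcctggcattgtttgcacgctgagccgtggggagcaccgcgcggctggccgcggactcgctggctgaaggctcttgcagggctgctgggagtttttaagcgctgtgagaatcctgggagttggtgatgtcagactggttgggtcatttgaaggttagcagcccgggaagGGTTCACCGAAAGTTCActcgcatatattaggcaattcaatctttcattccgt

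The Thrb windows belong to a pair of alternative starts on the plus strand, at chr14:17660710-17660959 and chr14:17981394-17981643. The first held AGGTCA at -184 to -179, as did 14.024% of windows. The second held the E-box CACGTG, the site of clock and other basic helix-loop-helix factors, at -193 to -188 (6.021% of windows) and TGAACT, which is AGTTCA on the other strand, at -160 to -155. AGTTCA or GGTTCA occurs in 19.64% of windows. The capitals mark these motifs.

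Thrb, first start: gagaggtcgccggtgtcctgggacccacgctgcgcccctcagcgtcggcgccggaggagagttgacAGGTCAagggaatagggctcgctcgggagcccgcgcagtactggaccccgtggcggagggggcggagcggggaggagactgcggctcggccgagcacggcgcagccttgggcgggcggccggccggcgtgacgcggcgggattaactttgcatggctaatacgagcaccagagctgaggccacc

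Thrb, second start: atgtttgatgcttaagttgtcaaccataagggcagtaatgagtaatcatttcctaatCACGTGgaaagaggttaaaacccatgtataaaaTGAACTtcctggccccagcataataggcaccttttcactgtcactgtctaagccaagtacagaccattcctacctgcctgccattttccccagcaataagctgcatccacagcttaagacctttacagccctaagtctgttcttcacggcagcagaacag

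An E-box also lay in 1 Rara window at -10 to -5, which made 2 of 16 windows with one. The D-box, searched as TTATGTAA or TTATGCAA, occurred in 0 of the 16 and in 1.501% of all windows. A repeat of receptor motifs spaced by 4, the form known for thyroid hormone receptors, occurred in 0 of the 16 and in 0.04% of all.

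Thra was measured by 3 probe sets, of which 1443952_at alone passed the F-test. The gene lies at chr11:98740776-98769006. The probe set 1443952_at gave 8.62, 8.64 and 8.37 at ZT3, 9.49, 9.25 and 9.16 at ZT9, 9.08, 9.18 and 9.51 at ZT15, and 9.21, 9.25 and 9.43 at ZT21. All 3 mice at ZT3 lay below all 9 others, and the other 3 time points overlapped one another. The means were 8.54 ± 0.15, 9.30 ± 0.17, 9.26 ± 0.22 and 9.30 ± 0.11 (SD, n = 3 each), so that the range was 0.76 (1.70-fold, standard error 0.13, limma's adjusted p = 0.0788). Its 3 highest arrays, ZT9 replicate 1, ZT15 replicate 3 and ZT21 replicate 3, were also among those with the highest mean intensity over all probe sets. By F-test p-value this probe set ranked 74 among all tested probe sets. Without ZT3 replicate 2 or 3 it lost the call (adjusted p = 0.271 and 0.349), while its range stayed between 0.67 and 0.83 over all 12 arrays left out in turn. The ZT3 arrays had mean linear intensities of 344 to 356 over all probe sets, against 347 to 398 for the other arrays, and after quantile normalization, which removes such differences, the range was 0.66 (adjusted p = 0.0397 from limma).

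The other Thra probe sets did not pass. The probe set 1426997_at gave 8.30, 8.21 and 8.07 at ZT3, 8.45, 8.36 and 8.26 at ZT9, 8.38, 8.30 and 8.66 at ZT15, and 8.46, 8.40 and 8.64 at ZT21. Its lowest mean was also that of ZT3, 8.19 ± 0.12, but neighbouring times overlapped, and the range of 0.31 (standard error 0.12) had an adjusted p of 0.377 from limma. The third, 1454675_at, gave 11.09, 11.24 and 11.19 at ZT3, 11.68, 11.37 and 11.36 at ZT9, 11.24, 11.24 and 11.33 at ZT15, and 11.26, 11.19 and 11.50 at ZT21. It was highest on average at ZT9, where 1 mouse lay above the rest, and its range of 0.30 (standard error 0.11) had an adjusted p of 0.400 from limma. All 3 had their lowest mean at ZT3, but for 1454675_at this did not hold after quantile normalization (ZT15 minus ZT3 of -0.0076). The annotation does not say which transcripts of Thra each probe set reads.

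Whether the 3 courses differed was tested on the difference between probe sets within each array, by an exact permutation test over all 369600 ways to divide the 12 arrays among the 4 times. This test was added after the values were seen, for 9 pairs, with p-values adjusted over the 9. The difference of 1443952_at minus 1454675_at was -2.63, -2.17, -2.01 and -2.02 at ZT3, ZT9, ZT15 and ZT21, and it varied with time (exact permutation p = 0.00370, adjusted p = 0.0111). The difference of 1426997_at minus 1443952_at was -0.35, -0.95, -0.81 and -0.80, and it varied too (exact permutation p = 0.00143, adjusted p = 0.0111). In both pairs ZT3 stood apart from the other times. For 1426997_at minus 1454675_at the exact permutation p was 0.0602 (adjusted p = 0.0903), so these were not shown to differ, except without ZT3 replicate 1 (adjusted p = 0.0310). Both pairs with 1443952_at kept their calls after quantile normalization (exact permutation, adjusted p = 0.0120 and 0.0094) and with each array left out (0.0058 to 0.0193).

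Thrb, the other thyroid hormone receptor, ran a different course, with its lowest level late in the night. It lies at chr14:17659225-18040097 and was measured by 1422202_at. That probe set gave 6.82, 7.06 and 6.69 at ZT3, 6.21, 6.60 and 6.80 at ZT9, 6.54, 6.73 and 6.52 at ZT15, and 5.77, 6.04 and 6.18 at ZT21. All 3 mice at ZT21 lay below all 9 others, narrowly so against the lowest mouse at ZT9, and the other times overlapped. The means were 6.85 ± 0.19, 6.54 ± 0.30, 6.60 ± 0.12 and 6.00 ± 0.21, so that the range was 0.85 (1.81-fold, standard error 0.16, limma's adjusted p = 0.166). The result was close to the threshold of 0.20. It kept the call with 4 of the 12 arrays left out in turn, namely ZT9 replicate 1 or 3, ZT15 replicate 3 and ZT21 replicate 3, and lost it without each of the other 8 (adjusted p up to 0.427), while the range stayed between 0.74 and 0.95. It also lost the call with no filter on dim probe sets (adjusted p = 0.269).

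The difference of Thra minus Thrb within an array changed over the day. With 1443952_at it was 1.69, 2.77, 2.66 and 3.30 at ZT3, ZT9, ZT15 and ZT21 (exact permutation p = 0.00312, adjusted p = 0.0111), so that its change over the day spanned 1.61 log2 units. With 1426997_at it was 1.34, 1.82, 1.85 and 2.50 (exact permutation p = 0.00909, adjusted p = 0.0205). With 1454675_at it was 4.32, 4.94, 4.67 and 5.32 (exact permutation p = 0.0201, adjusted p = 0.0361). The 3 differences share the same Thrb values, which were highest at ZT3 and lowest at ZT21, so they are not independent of one another or of the course of Thrb given above. Their size at a given time also depends on the brightness of the probe sets. After quantile normalization the changes spanned 1.58, 1.13 and 0.99 in the same order (exact permutation, adjusted p = 0.0094, 0.0094 and 0.0261). With an array left out in turn, the first kept an adjusted p of at most 0.0201. The second lost its call without ZT3 replicate 2 (0.0538), ZT21 replicate 1 (0.0747) or ZT21 replicate 3 (0.0520). The third kept its call only without ZT9 replicate 1, ZT9 replicate 3 or ZT21 replicate 2, and was between 0.0522 and 0.102 without each of the other 9.

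**Figure D2:**
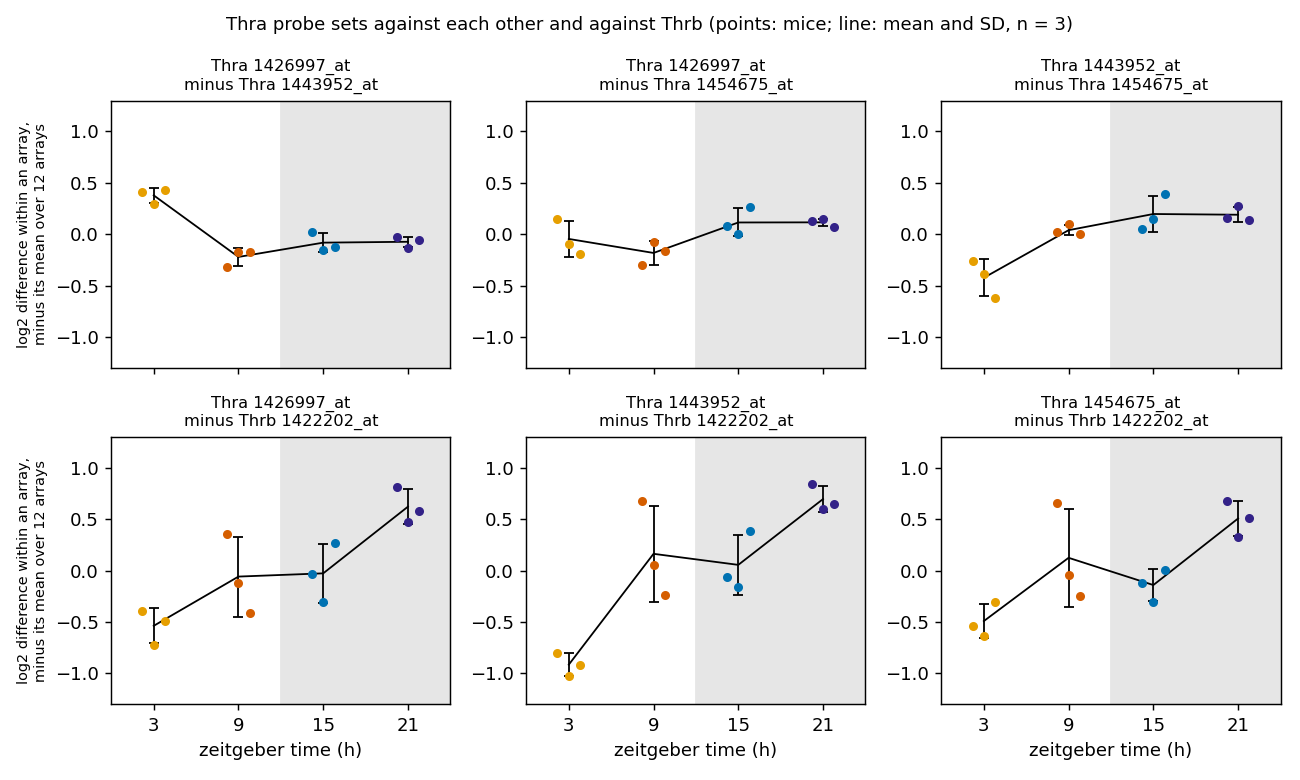
Log2 difference between probe sets within an array, minus its mean over the 12 arrays, by zeitgeber time in hours, for Thra probe sets against each other and against Thrb (points are mice, the line is the mean with SD, n = 3). The 3 panels of Thra minus Thrb, which share the Thrb values, are lowest at ZT3 and highest at ZT21, with spans of 1.16, 1.61 and 1.00 between the lowest and highest mean.

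Dio2 was highest early in the night by its brightest probe set. The gene lies at chr12:90724552-90739038. The probe set 1418937_at gave 8.85, 8.81 and 8.69 at ZT3, 8.82, 9.00 and 8.78 at ZT9, 9.37, 9.20 and 9.59 at ZT15, and 9.00, 8.92 and 9.25 at ZT21. All 3 mice at ZT15 lay above all 6 mice of the light period, and 1 mouse at ZT21 overlapped those of ZT15. The means were 8.78 ± 0.08, 8.87 ± 0.12, 9.39 ± 0.20 and 9.06 ± 0.17, so that the range was 0.60 (1.52-fold, standard error 0.12, limma's adjusted p = 0.175). This call too was near the threshold, and it was kept and lost with the same arrays as that of Thrb, with adjusted p up to 0.427 and ranges of 0.50 to 0.70. The fits that kept both calls were those that called the most of all tested probe sets, 1378 to 3025. The fits that lost them called 40 to 252, so the shared pattern is not particular to these genes. The call of Dio2 was also lost when each array was centred on its median (adjusted p = 0.210 from limma). It was lost too with no filter on dim probe sets (adjusted p = 0.248 from limma). Its highest mice at ZT15 and ZT21 were replicate 3 of each, on arrays with a high mean intensity over all probe sets (392 and 395). After quantile normalization it kept the call. It then gave 8.89, 8.87 and 8.79 at ZT3, 8.72, 8.91 and 8.85 at ZT9, and 9.35, 9.23 and 9.49 at ZT15.

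The other Dio2 probe sets did not pass. The probe set 1426081_a_at gave 7.31, 7.43 and 7.62 at ZT3, 6.65, 7.81 and 7.43 at ZT9, 7.82, 7.68 and 7.71 at ZT15, and 7.21, 7.21 and 7.38 at ZT21. Its highest mean was also at ZT15, 7.74 ± 0.08, and its lowest at ZT21, 7.27 ± 0.10, and the range was 0.47 (standard error 0.22, limma's adjusted p = 0.467). Without ZT9 replicate 1, its lowest array, it passed (limma's adjusted p = 0.171), in a fit that called 3025 of all tested probe sets. The probe set 1418938_at gave 6.72, 7.08 and 7.42 at ZT3, 6.10, 6.85 and 6.94 at ZT9, 7.30, 7.11 and 6.72 at ZT15, and 6.86, 7.11 and 6.75 at ZT21. These overlapped at all times, and the range was 0.44 (standard error 0.24, limma's adjusted p = 0.545). The courses of the 3 Dio2 probe sets were not shown to differ (exact permutation p = 0.359, 0.378 and 0.253 for the 3 pairs, adjusted p = 0.378, 0.378 and 0.325). The astrocyte markers fixed for comparison (Aqp4, Gfap, Slc1a2, Slc1a3, Gja1, Aldh1l1, S100b and Aldoc) were all tested, and 0 of 8 passed the F-test of limma, also at an unadjusted p under 0.05. Over all genes, by their brightest probe sets, these shares were 2.06% and 15.5%. The summed linear intensity of the astrocyte markers was 31399 to 33208 at ZT3, 32572 to 38857 at ZT9, 32650 to 37323 at ZT15 and 29316 to 38284 at ZT21.

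**Figure D3:**
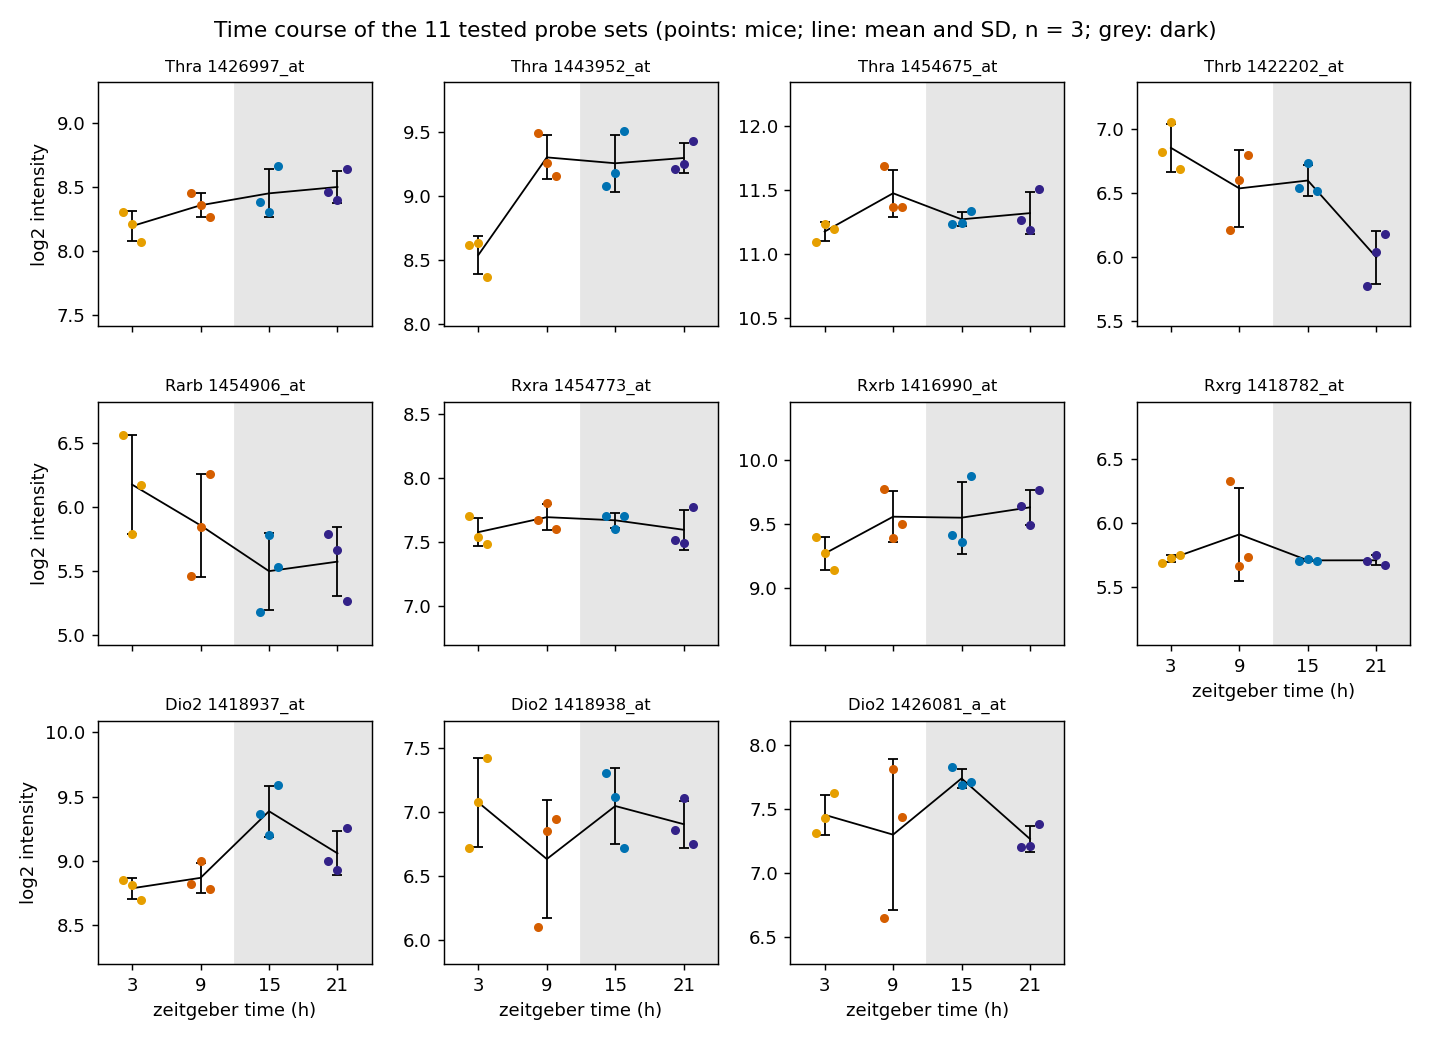
Log2 intensity by zeitgeber time in hours for the 11 tested probe sets, with points for mice, lines for the mean with SD (n = 3) and grey for the dark period. Every panel spans the same number of log2 units, and Thra 1443952_at is lowest at ZT3 (8.54), Thrb at ZT21 (6.00) and Dio2 1418937_at highest at ZT15 (9.39).

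Of the retinoic acid receptors, Rarb alone was bright enough to be tested. It lies at chr14:16430839-17082331, on the same chromosome as Thrb. Its probe set 1454906_at gave 6.56, 5.79 and 6.17 at ZT3, 5.46, 5.85 and 6.26 at ZT9, 5.18, 5.78 and 5.54 at ZT15, and 5.79, 5.67 and 5.27 at ZT21. The mice at ZT3 met those of the dark period only at 5.79, and those of ZT9 overlapped both. The means were 6.17 ± 0.39, 5.86 ± 0.40, 5.50 ± 0.30 and 5.57 ± 0.27, and the range of 0.68 (standard error 0.24) had an adjusted p of 0.341 from limma. Rarb is a marker of striatum, and the 9 striatal markers tested, which include it and Rxrg, had summed linear intensities of 2243 to 3055 at ZT3, 2429 to 3849 at ZT9, 2834 to 3282 at ZT15 and 2406 to 3113 at ZT21, with 0 of 9 called by limma. By their means, 7 of the 9 striatal markers peaked at ZT9, Rxrg among them, while Rarb was the only 1 to peak at ZT3. The part of striatal tissue in the values of Rarb and Rxrg was not tested.

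Rara and Rarg were dim. The single Rara probe set (chr11:98927800-98974942), 1450180_a_at, lay between 2.35 and 2.67 on all 12 arrays. Rarg (chr15:102234938-102257522) lay between 4.03 and 4.22 by 1419416_a_at. By 1419415_a_at it lay between 4.24 and 4.40 on 11 arrays and at 4.94 on ZT21 replicate 3. When all probe sets were fitted without a filter, the adjusted p from limma was 0.914 for Rara and 0.824 and 0.896 for the Rarg probe sets 1419415_a_at and 1419416_a_at.

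None of the retinoid X receptors, partners of both other families, passed the F-test. Rxrb (chr17:34031812-34038403) gave by 1416990_at 9.40, 9.27 and 9.14 at ZT3, 9.78, 9.39 and 9.50 at ZT9, 9.41, 9.36 and 9.87 at ZT15, and 9.64, 9.49 and 9.76 at ZT21. As for Thra, ZT3 had the lowest mean (9.27 ± 0.13) and ZT21 had 9.63 ± 0.14, with no overlap between these times, but ZT9 and ZT15 overlapped both, and the range of 0.36 (standard error 0.15) had an adjusted p of 0.418 from limma. Its 3 highest arrays, ZT9 replicate 1, ZT15 replicate 3 and ZT21 replicate 3, were among the 4 with the highest mean intensity over all probe sets (392 to 398, against 344 to 374 on the other 8), and the part of this in its values was not tested. Rxra (chr2:27676445-27763319) by 1454773_at gave 7.70, 7.54 and 7.49 at ZT3, 7.67, 7.80 and 7.60 at ZT9, 7.70, 7.60 and 7.70 at ZT15, and 7.52, 7.49 and 7.77 at ZT21. Its range of 0.12 (standard error 0.10, limma's adjusted p = 0.777) was the smallest of the 11, and all times overlapped. Its other probe sets were dim, at 2.61 to 3.11 for 1425762_a_at and 2.31 to 2.44 for 1430497_at.

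Rxrg (chr1:167598362-167639623), by 1418782_at, gave 5.69, 5.72 and 5.75 at ZT3, 6.33, 5.67 and 5.74 at ZT9, 5.71, 5.72 and 5.70 at ZT15, and 5.71, 5.75 and 5.67 at ZT21. A single mouse, ZT9 replicate 1, stood above the 11 others, which lay between 5.67 and 5.75. The SD was 0.03, 0.01 and 0.04 at ZT3, ZT15 and ZT21. Detection calls were not used, so it is not known whether Rxrg was detected on those 11 arrays. The range of 0.20 (standard error 0.14, limma's adjusted p = 0.654) rested on ZT9 replicate 1. Without it, the difference of ZT9 minus ZT15 was -0.0065 (adjusted p = 0.999 from limma). Of the 9 striatal markers tested, that array was the highest of the 12 for 2, Rxrg itself and Tac1 (10.25, against 8.79 to 9.63 on the others), while for Rarb, at 5.46, it was the lowest at ZT9. It was also the highest for Crym, a thyroid hormone binding protein of the cytosol, at 10.51 against 9.14 to 9.70. No cause of this was tested.

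No member passed the test of dark against light, of ZT15 against ZT3 or of ZT21 against ZT9 in the same limma fit, with a threshold of 0.05 on the adjusted p. There, 0.0937% of all tested probe sets were higher in the dark, 0.22% higher at ZT15 than at ZT3 and 0.00407% higher at ZT21 than at ZT9, and 0 were lower in any of the 3. At an unadjusted p under 0.05, 3 of the 11 (both Thra probe sets other than 1454675_at, and Dio2 1418937_at) were higher in the dark, against a background of 8.76%, and 2 (Thrb and Rarb) were lower, against 6.58%. Between ZT15 and ZT3 the same 3 were higher (background 9.85%) and Rarb was lower (2.68%). Between ZT21 and ZT9 Thrb was lower (9.07%) and 0 were higher (4.18%).

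Dio2 1418937_at averaged 9.22 ± 0.24 in the dark and 8.82 ± 0.10 in the light (SD, n = 6 each), a difference of 0.40 with a 95% interval of 0.21 to 0.59 (adjusted p = 0.117 from limma). The groups overlapped only between 8.92 and 9.00. At ZT15 it was 0.60 higher than at ZT3 (interval 0.33 to 0.87, adjusted p = 0.0756 from limma). Thra 1443952_at averaged 9.28 ± 0.16 in the dark and 8.92 ± 0.44 in the light, with the ZT9 mice as high as those in the dark, a difference of 0.36 (adjusted p = 0.187 from limma). Its level at ZT15 was 0.72 above that at ZT3 (interval 0.42 to 1.01, adjusted p = 0.0570 from limma), with no overlap of the mice.

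Thrb averaged 6.30 ± 0.36 in the dark and 6.69 ± 0.28 in the light, a difference of -0.40 (interval -0.64 to -0.15, adjusted p = 0.196 from limma). At ZT21 it was lower than at ZT9 by all mice, with a difference of -0.54 (interval -0.89 to -0.19, adjusted p = 0.253 from limma). Rarb averaged 5.54 ± 0.26 in the dark and 6.02 ± 0.39 in the light, a difference of -0.48 (interval -0.85 to -0.10, adjusted p = 0.243 from limma), with overlap. The median difference between dark and light was 0.12 over the 11 and 0.01 over all tested probe sets.

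**Figure D4:**
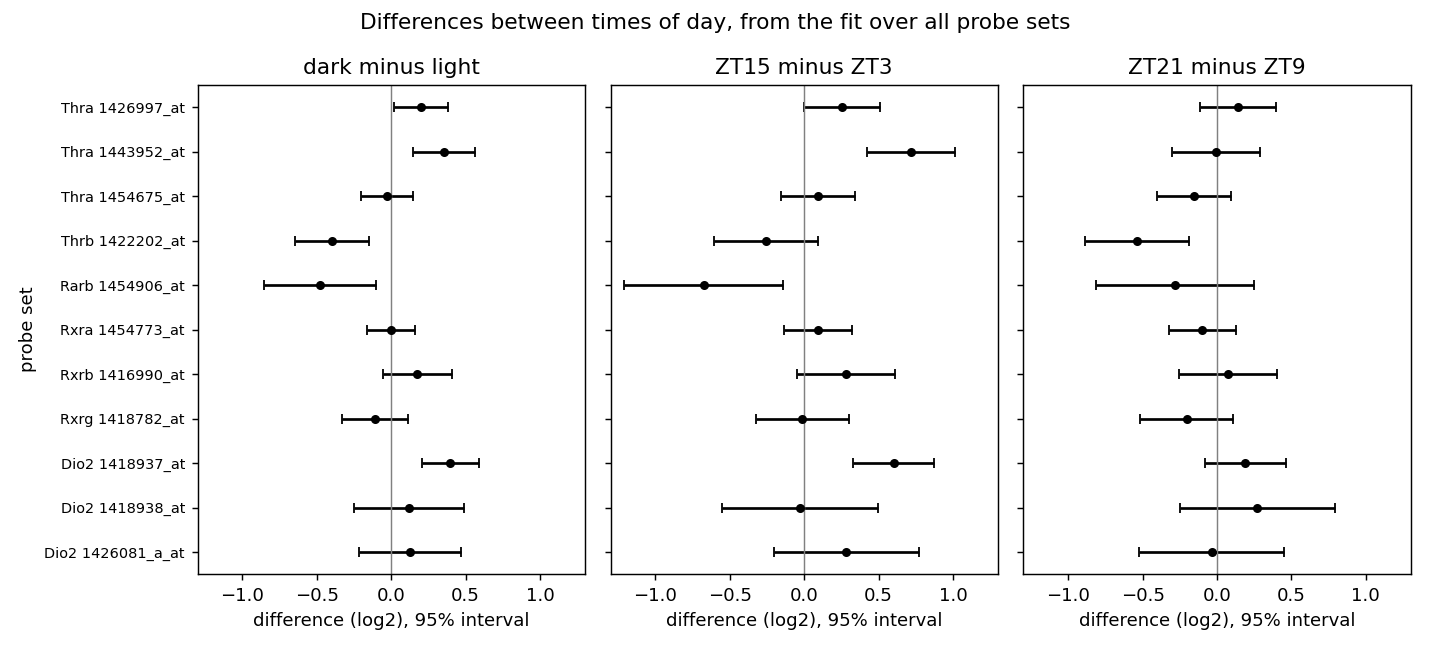
Differences of dark minus light, ZT15 minus ZT3 and ZT21 minus ZT9 (log2, with 95% intervals from limma) for the 11 tested probe sets, in rows. Dio2 1418937_at and Thra 1443952_at lie to the right of 0 in the first and second panel (0.40 and 0.36, then 0.60 and 0.72), and Thrb and Rarb to the left in all 3, though no adjusted p was under 0.05.

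Of the genes beside Thra, Thrb, Rara and Rarb, Nr1d2 and Top2b passed the F-test by 1 probe set each. Thra overlaps the end of Nr1d1 by 1075 bases. Nr1d1 encodes REV-ERB alpha, a heme-binding repressor of the clock. It averaged 7.12 ± 0.08, 8.12 ± 0.61, 7.70 ± 0.59 and 7.55 ± 0.18 at ZT3, ZT9, ZT15 and ZT21, with a range of 1.00 (adjusted p = 0.313 from limma). On the other side of Thra, Med24, a subunit of the Mediator complex, had a range of 0.17 (adjusted p = 0.537). Nr1d2, the paralog of Nr1d1, lies 163958 bases beyond Thrb and passed the F-test by 1416958_at (11.11 ± 0.09, 11.70 ± 0.25, 11.73 ± 0.11 and 11.24 ± 0.28, adjusted p = 0.188 from limma). Its other probe set, with a range of 1.29, did not (adjusted p = 0.336).

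Top2b, a DNA topoisomerase of neurons, lies 51 bases from Rarb. It passed by 1 of 3 probe sets, 1416732_at, which was lowest at ZT21 (7.89 ± 0.33) with a range of 0.72 (adjusted p = 0.185 from limma). Its brightest probe set, 1416731_at, had its trough at ZT3 (range 0.21, adjusted p = 0.558 from limma). The third, 1448458_at, had it at ZT21 (range 1.10, adjusted p = 0.243 from limma). Thrb, on the other side of Rarb at a distance of 576893 bases, also had its trough at ZT21. Cdc6, beside Rara, was too dim to test. Gjd3, 5004 bases away on the other side of Rara, had no probe set under that symbol alone.

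The genes most like a member in their course were sought by the Pearson correlation of log2 intensity over the 12 arrays, among tested probe sets with a single symbol. These correlations are descriptions, and the arrays also share differences in overall intensity. That a gene found in this way shares its peak or trough with the member follows largely from the choice. Thra 1443952_at was most like Tef (r = 0.980), Dbp (0.958), Srrm4os (0.957), Men1 (0.956) and Dyrk2 (0.955). Tef and Dbp encode transcription factors of one family, controlled by the clock and known to bind the D-box, and both peaked at ZT9 with their trough at ZT3. Dbp had a range of 2.16 (adjusted p = 0.000503 from limma), while Tef, with a range of 0.45, had an adjusted p of 0.227. Thra 1454675_at was most like Hpcal4 (0.961), Slc25a22 (0.953), Tiam1 (0.947), Dner (0.946) and Ptbp2 (0.945), all with a peak at ZT9. Dio2 1418937_at was most like Dennd11 (0.958), Ralb (0.958), Pou3f3 (0.955), Camk2n1 (0.951) and Dpf2 (0.950), all with a peak at ZT15 and a trough at ZT3.

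The genes that supply the ligands, and those that respond to them, were described by the brightest probe set of each gene. Over all 11791 genes tested in this way, 2.06% passed limma's F-test with the same threshold, 15.5% had an unadjusted p under 0.05, and 56.1% had a higher mean in the dark than in the light. Of the genes for transport and metabolism of thyroid hormone, 5 of 9 were tested, 0 passed, 2 had an unadjusted p under 0.05, and 2 were higher on average in the dark. Slc7a5, a large neutral amino acid transporter that also carries thyroid hormone, averaged 9.29, 9.76, 9.64 and 9.60 (range 0.47, standard error 0.12, adjusted p = 0.255). Crym had a range of 0.69 (adjusted p = 0.294), with its highest array as given above. Ttr, the thyroxine carrier of the choroid plexus, spanned 9.22 to 14.82 over single arrays (adjusted p = 0.476).

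Of the genes known to respond to thyroid hormone in brain, 9 of 11 were tested and 0 passed, with 1 at an unadjusted p under 0.05 and 7 higher on average in the dark. Klf9, a transcription factor gene that thyroid hormone and glucocorticoids both induce, averaged 11.84, 12.11, 12.23 and 11.95 at ZT3, ZT9, ZT15 and ZT21 (range 0.40, standard error 0.14, adjusted p = 0.344 from limma). Its highest mean, like that of Dio2, was at ZT15. Thrsp and Rasd2 (Rhes, a small GTPase) had ranges of 0.39 and 0.37 (adjusted p = 0.299 and 0.342).

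Of the genes of retinoid transport and metabolism, 7 of 16 were tested, 7 more were too dim and 0 passed. Dhrs3, which reduces retinal to retinol, averaged 7.31, 7.31, 7.41 and 7.67, highest at ZT21 (range 0.36, standard error 0.10, adjusted p = 0.241 from limma). Aldh1a2 and Aldh1a1, which make retinoic acid from retinal, had ranges of 0.37 and 0.32 (adjusted p = 0.358 and 0.407). Of the genes known to respond to retinoic acid, 5 of 11 were tested and 0 passed. They include Rarb itself, and Tgm2, a transglutaminase, with a range of 0.52 (adjusted p = 0.610). Cyp26a1 and Cyp26b1, the enzymes that clear retinoic acid and are known as its targets, were too dim to test.

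Of the coregulators, 11 of 13 were tested and 0 passed, while 3 had an unadjusted p under 0.05 and 9 were higher on average in the dark. Tbl1xr1, a part of the corepressor complex that the unliganded receptors recruit, averaged 9.35, 9.47, 9.03 and 8.89 (range 0.58, standard error 0.14, adjusted p = 0.224 from limma). The acetyltransferase coactivators Ep300 and Crebbp had ranges of 0.52 and 0.36 (adjusted p = 0.266 and 0.306).

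Of the other nuclear receptors that pair with retinoid X receptors, 5 of 11 were tested and 1 passed. This was Nr4a2 (Nurr1), also an activity-regulated gene, which gave 9.09, 8.79 and 8.88 at ZT3, 10.50, 9.02 and 9.79 at ZT9, 9.52, 10.11 and 10.15 at ZT15, and 10.14, 10.40 and 10.47 at ZT21. All mice in the dark lay above all mice at ZT3, and those of ZT9 spread across both (range 1.42, standard error 0.30, adjusted p = 0.194 from limma). Its relative Nr4a1 had a range of 1.72 (standard error 0.52, adjusted p = 0.286), and Ppard one of 0.29 (adjusted p = 0.387). All 5 were higher on average in the dark, with a median difference of 0.17, against 0.02 over all genes.

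**Figure D5:**
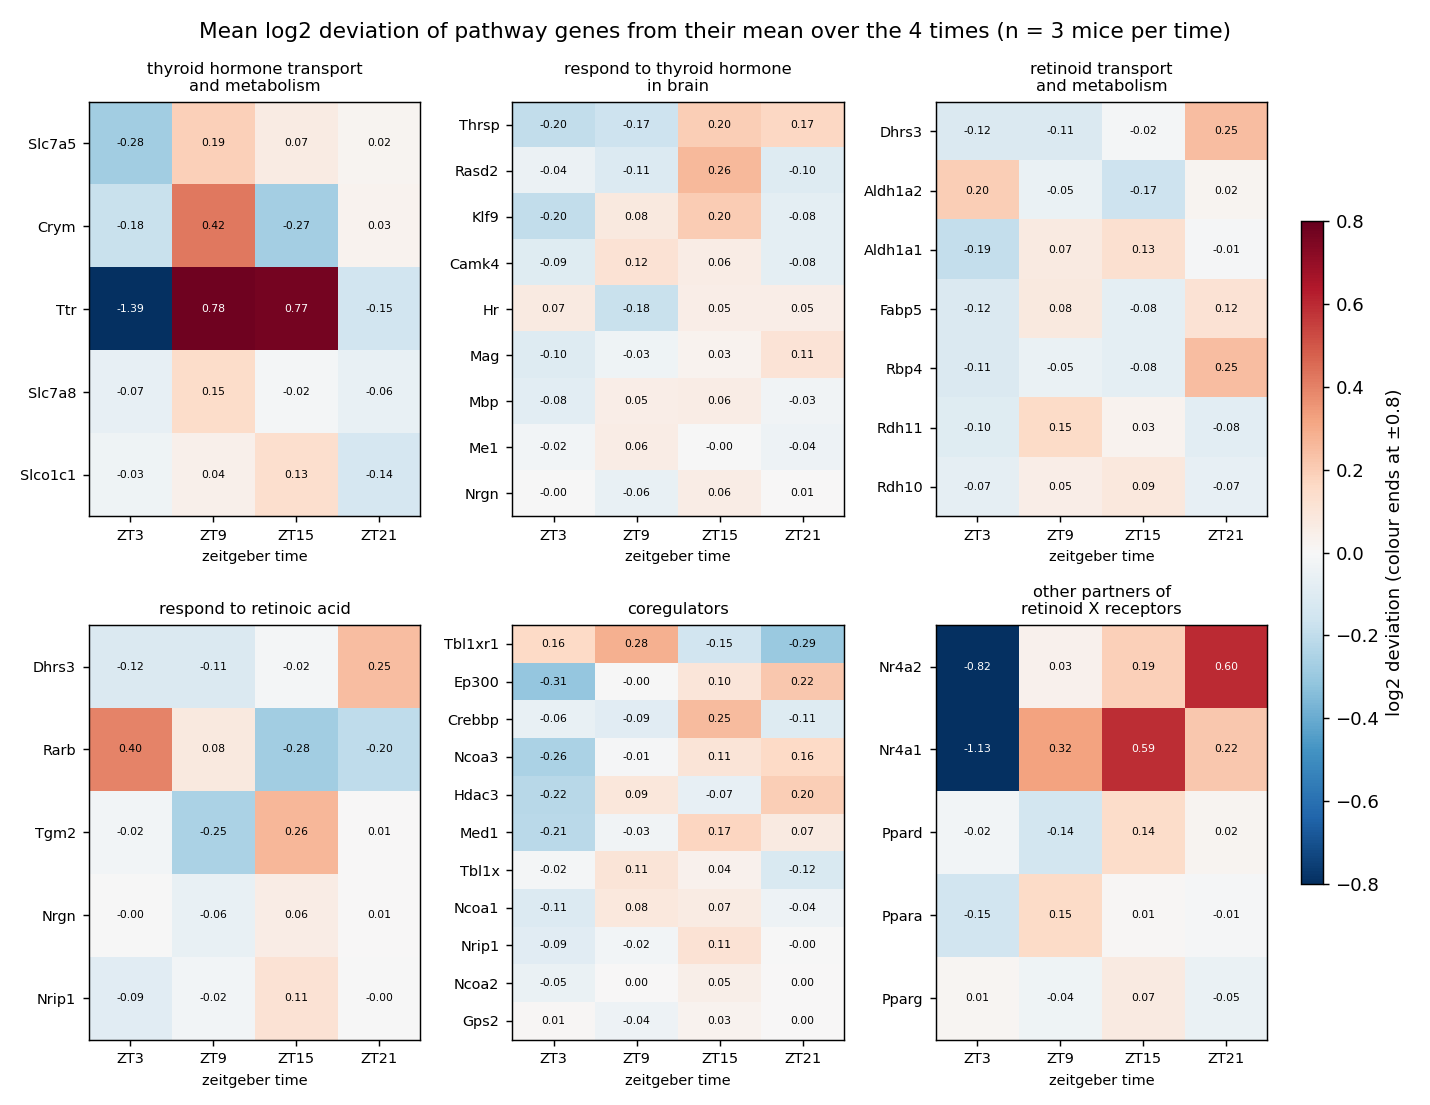
Mean log2 deviation of each tested pathway gene from its mean over the 4 time points (colour, ending at ±0.8), with genes in rows and ZT3, ZT9, ZT15 and ZT21 in columns (n = 3 mice per time). Nr4a2 spans 1.42 from ZT3 to ZT21 and was the only gene of these lists that passed limma's F-test.

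The tissue carried the markers of cortex, with Slc17a7, the vesicular glutamate transporter of cortical neurons, between 12.08 and 12.36 on all arrays. None of the 5 cortical neuron markers tested passed the F-test of limma, with 2 at an unadjusted p under 0.05. Over all genes these shares were 2.06% and 15.5%. The other lists had 5 markers tested for oligodendrocytes, 6 for microglia, 5 for meninges and 3 for choroid plexus. Striatum had 9, blood 1 and endothelium 4. By the brightest probe set of each gene, 1 of these passed, Cldn5 of the endothelium (range 1.06, adjusted p = 0.0602 from limma). Mbp of the oligodendrocytes did not pass in this way, though the paper called it diurnal. At an unadjusted p under 0.05 there were 1 for microglia, 2 for meninges, 1 for striatum, 2 for endothelium and 0 for the others. The 6 choroid plexus markers with a probe set, Ttr among them, include Folr1, Kl and Cldn2, which were too dim to test. Their summed linear intensity varied widely between mice, at 838 to 2180 at ZT3, 1972 to 29853 at ZT9, 2426 to 18984 at ZT15 and 1679 to 5615 at ZT21. Between arrays, correlations of log2 intensity over all probe sets were 0.991 to 0.998.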

How the data were processed

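RNA of 1 mouse per array was measured in 12 mice. The authors extracted GCRMA intensities per probe set, deposited on a linear scale, and took detection calls, which are not used here, from MAS 5.0. Gene symbols came from the platform annotation and positions and promoters from RefSeq (GRCm38.p6). Values were taken as log2, and the brightest probe sets, as many as the study kept by its calls, were fitted with limma 3.58.1 in R 4.3.3 (lmFit, eBayes). Benjamini-Hochberg adjustment ran over all of them, with thresholds of 0.20 for the F-test and 0.05 for 2-sided contrasts. The fit was tested on simulated data. Figures were made with Python 3.11.15 and matplotlib 3.10.9. All probe sets of the members were named, the genes overlapping or next to Thra, Thrb, Rara and Rarb, the 5 genes most like 3 member probe sets, and up to 3 genes per list with the smallest F-test p. Tac1, Slc17a7, Cldn5, Cyp26a1 and Cyp26b1 were named beside these, after seeing their values. Members and lists were chosen with earlier results of these data known. Alternatives were quantile normalization, centring on the array median, no filter, the 15000 brightest probe sets, a trend with a robust prior, the replicate number as a block, SAM with 100 permutations and each array left out. Tests of probe set pairs, with their alternatives, were added after seeing the data. Per the paper the replicates are separate mice. The number of arrays limits the precision. Scan batches were not given.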

Additional observations from a re-analysis of the deposited data

How the results depend on the processing

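The number of called probe sets depended strongly on the settings. Of all tested, 473 passed the F-test, against 2144 after quantile normalization, 252 after centring, 194 with no filter, 1330 among the 15000 brightest, 416 with a trend and robust prior, 3938 with SAM, and 40 to 3025 with an array left out (40 and 60 without ZT3 replicate 2 and 3, 3025 without ZT9 replicate 1). The members called were 3, and also 3 with quantile normalization, the trend and SAM, against 2 after centring, 2 among the 15000 brightest, where Thrb is not included, 1 with no filter (Thra 1443952_at) and 0 to 4 with an array left out (0 without ZT3 replicate 2 or 3, 4 without ZT9 replicate 1). Contrast counts were 23 for dark minus light (41 with quantile normalization, 64 among the 15000 brightest, 6 to 99 with an array left out), 54 for ZT15 minus ZT3 (30 with no filter, 116 among the brightest, 7 to 101) and 1 for ZT21 minus ZT9 (2, 3 and 1 to 93, the first with quantile normalization and the second among the brightest). The cause was not tested. With quantile normalization Thra 1443952_at at ZT15 minus ZT3 (0.62, adjusted p = 0.0462) and Dio2 1418937_at at ZT15 minus ZT3 (0.50, 0.0477) and in dark minus light (0.37, 0.0454) fell under 0.05. The ZT15 minus ZT3 differences of both also did among the 15000 brightest (adjusted p = 0.0305 and 0.0478), and that of Thra without ZT9 replicate 1 (0.0441).

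Replicate numbers did not pair the samples. Of 18 same-numbered pairs, 6 had deviations correlated over 0.1 (r = -0.498 to 0.487), and 3 of 12 arrays correlated best with their own number. With the replicate block the F-test called 91 probe sets and 0 members (adjusted p = 0.225, 0.218 and 0.314 for Thra 1443952_at, Thrb and Dio2 1418937_at), and the contrasts 12, 25 and 1 in the order above.

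Signs reversed only for differences that passed no test, given here with their range over the 12 arrays left out in turn. For ZT21 minus ZT9 the ranges were -0.0759 to 0.0902 for Thra 1443952_at (0.0461 with quantile normalization), -0.0099 to 0.183 for Rxrb, -0.324 to 0.0071 for Rxrg and -0.358 to 0.223 for Dio2 1426081_a_at. For dark minus light they were -0.0762 to 0.0233 for Thra 1454675_at, -0.0474 to 0.0282 for Rxra 1454773_at (0.0018 after centring), -0.0098 to 0.209 for Dio2 1418938_at and -0.0367 to 0.253 for Dio2 1426081_a_at. For ZT15 minus ZT3 they were -0.0283 to 0.0012 for Rxrg and -0.204 to 0.145 for Dio2 1418938_at, and Thra 1454675_at had -0.0076 with quantile normalization. The difference of ZT9 minus ZT15 for Rxrg lay between -0.0065 and 0.325.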
